A study of Mus musculus with 9 samples.

Results

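The dentate gyrus (DG) of the hippocampus holds radial glia-like neural stem cells, and the cells described here were picked from single-cell libraries of the DG by 6 genes that separate such cells from their neighbours. A cell barcode was taken when it held at least 1 unique molecular identifier (UMI, a tag that marks 1 captured mRNA molecule) of Hopx and of Slc1a3 and no UMI of Gjb6, Pdgfra, Dcx or Eomes, among barcodes with at least 1500 UMIs and at most 10% of UMIs from mitochondrial genes. This gate found 144 cells among 2437 DG barcodes, of which 2027 were within the limits on depth, and the 9 libraries of the 3 brain regions held 7402 barcodes in all. The cells are called Hopx+ Gjb6- cells below. The gate counts as known: levels of these 6 genes are given as a description, and genes that go with them are not independent of the choice.

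All mice were heterozygous for Dcx-GFP, in which the promoter of Dcx, a gene of young neurons, drives green fluorescent protein. The subventricular zone (SVZ), olfactory bulb (OB) and DG were dissected at 3 months (adult), 14 months (middle-aged) and 24 months (aged), and GFP+ cells were sorted by fluorescence. Mice of both sexes were used. Tissue of 4 to 5 mice of 1 age was pooled for each region, and 1 droplet-based 3′ library was made from each pool. No age has a second library, so the values compare single pools and no test between ages was run. The 3 DG libraries held 890, 1198 and 349 barcodes at 3, 14 and 24 months, with 3869007, 5132146 and 1544351 UMIs. The reporter limits what the cells can stand for, since every gated cell came through a sort for Dcx-driven GFP and yet held no Dcx UMI, and the sort can leave out stem cells without GFP.

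Radial glia-like stem cells lie below the granule cell layer, send a process through it and make glial proteins such as GFAP. They divide rarely, and when they do they give rise, by way of Eomes+ intermediate progenitors, to Dcx+ neuroblasts and then to granule neurons. Their RNA is close to that of astrocytes, and some of them also make connexin 30, the gap junction protein encoded by Gjb6, so a gate on Gjb6 can leave out stem cells as well as astrocytes. Hopx encodes a homeodomain protein without DNA binding of its own that marks quiescent stem cells in several tissues, and Slc1a3 encodes the glutamate transporter GLAST of radial glia and astrocytes.

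The Hopx+ Gjb6- cells made up a smaller share of the DG barcodes at both later ages. They were 88 of 702 barcodes at 3 months, which is 12.5% with an exact 95% interval (Clopper-Pearson) of 10.2 to 15.2%. They were 45 of 1035 at 14 months (4.35%, 3.19 to 5.77%) and 11 of 290 at 24 months (3.79%, 1.91 to 6.69%). The adult interval lies above the other two, which overlap. These and all other intervals given here cover counting error only and not the spread between mice or sorts.

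The rest of each library set these shares too. Cells with Pdgfra, a receptor of oligodendrocyte progenitor cells (OPCs), took 6.55% of the barcodes at 3 months, 62.6% at 14 months and 70.7% at 24 months. Eomes+ progenitors took 20.9%, 1.84% and 0.690%. Within the sum of Hopx+ Gjb6- cells and Gjb6+ astrocytes, which leaves OPCs out, the Hopx+ Gjb6- cells were 26.3% of 334 cells at 3 months (21.7 to 31.4%), 16.2% of 277 at 14 months (12.1 to 21.1%) and 16.7% of 66 at 24 months (8.62 to 27.9%). On this denominator the adult and aged intervals overlapped. Gjb6+ astrocytes are barcodes within the same limits with Gjb6 and Slc1a3 and without Pdgfra, Dcx or Eomes, and they numbered 246, 232 and 55.

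**Figure D1:**
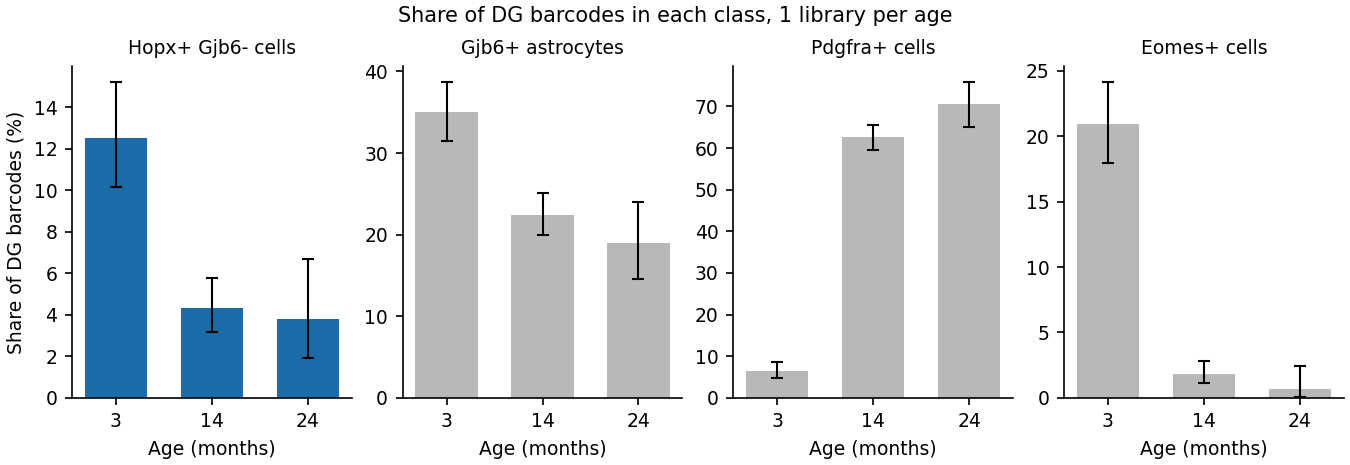
Share of DG barcodes within the depth limits (percent, vertical axis) in 4 classes at 3, 14 and 24 months, with 1 library per age. Bars are shares and lines exact 95% binomial intervals. The Hopx+ Gjb6- cells took 12.5%, 4.35% and 3.79%, while Pdgfra+ cells took 6.55%, 62.6% and 70.7%.

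The depth of the gated cells was alike at the 3 ages. Their median was 4245 UMIs at 3 months, 3956 at 14 months and 4507 at 24 months, against 4080.5, 4185.5 and 3865 in Gjb6+ astrocytes. Their UMIs summed to 403172, 179808 and 59549, so that a gene without a UMI could have had up to 7.44, 16.7 and 50.4 counts per 1000000 UMIs (CPM), the level of 3 UMIs. A level below is always the CPM of UMIs summed over the cells of a class in 1 library. The aged values rest on few UMIs, and many genes that could be measured at 3 months could not be measured at 24 months. The adult and middle-aged DG libraries shared 2 barcodes, none of them among the gated cells, and no other pair of DG libraries shared any.

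A single aged cell went against the label. It held 12734 UMIs and 3287 genes, and 9.71% of its UMIs came from 7 oligodendrocyte markers. It had 1 UMI each of Hopx and Slc1a3, none of Gfap or Ass1 and 3 of Apoe, and the other 10 aged cells had at most 1 marker UMI each. Scrublet, which calls doublets, did not call it. This cell gave 21.4% of the aged UMIs, so aged levels are given with it and, where stated, for the other 10 cells.

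Ass1 was detected in most cells at each age, and Gfap in most cells at 3 and 14 months but in 4 of 11 at 24 months. Ass1, which encodes argininosuccinate synthase of arginine synthesis, was at 449 CPM (386 to 519) at 3 months, 428 (338 to 535) at 14 months and 285 (166 to 457) at 24 months. Gfap was at 427, 428 and 168 CPM. A UMI of Ass1 was found in 69 of 88, 32 of 45 and 8 of 11 cells, and one of Gfap in 71, 32 and 4. Both genes were detected in 59 cells at 3 months, 22 at 14 months and 4 at 24 months, and neither was detected in 7, 3 and 3.

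These shares were far above those in OPCs, which should lack the genes. Ass1 was detected in 78.4%, 71.1% and 72.7% of the gated cells and in 2.17%, 0.926% and 1.46% of OPCs. For Gfap the shares were 80.7%, 71.1% and 36.4% in the gated cells and 2.17%, 3.40% and 1.46% in OPCs, whose median depth was 4604.5, 4828.5 and 5467 UMIs. With every cell thinned to 1500 UMIs, Ass1 was detected in 48.1%, 42.4% and 41.7% of the gated cells, and Gfap in 47.7%, 42.7% and 20.7%.

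Of 22 radial glia-like stem cell markers, 22 were detected at 3 months, 20 at 14 months and 20 at 24 months. The most abundant was Mfge8, a secreted phagocytosis factor, at 2381 CPM in the adult cells. Summed, the 22 genes took 0.684% of the UMIs at 3 months, 0.702% at 14 months and 0.541% at 24 months, or 0.666% without the oligodendrocyte-rich cell. The log2 ratio of this sum was 0.04 for 14 over 3 months (-0.06 to 0.13) and -0.04 (-0.21 to 0.13) for 24 over 3 months without that cell. With all 11 aged cells it was -0.34 (-0.51 to -0.17) for 24 over 3 months and -0.38 (-0.56 to -0.20) for 24 over 14 months, so the aged value of this list depends on 1 cell.

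Markers of other cells were low. Of 11 microglia markers, 10 were at 0 at 3 months and 9 at 14 and at 24 months. The 8 vascular markers summed to 5, 4 and 3 UMIs and the 5 ependymal markers to 20, 14 and 2. The 17 neuronal lineage markers gave 268, 161 and 101 CPM, with Sox11, a transcription factor of immature neurons, at 50 UMIs in 22 adult cells and none in the aged cells. The 10 OPC markers gave 18, 36 and 37 UMIs, that is 44.6, 200 and 621 CPM, or 235 CPM with 11 UMIs in the aged cells without the oligodendrocyte-rich cell. Olig1, a transcription factor of the oligodendrocyte lineage, was the most abundant of these at the 2 later ages with 17 and 27 UMIs. OPCs were also far more frequent in those libraries, and the part of RNA from them in these values was not tested.

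Beside Gjb6+ astrocytes of the same libraries, the Hopx+ Gjb6- cells had more RNA of several stem cell and early-response genes and less of most mature astrocyte genes. The gate set the groups apart, so this comparison describes the cells and has no test. Among 6412 genes with 50 or more UMIs in all sums together, 68 (1.06%) were at least 2-fold higher and 121 (1.89%) at least 2-fold lower in all 3 libraries. At any size of difference, 1520 (23.7%) were higher and 1047 (16.3%) lower in all 3, and the counts of list members below are read against these shares. Without the oligodendrocyte-rich cell the counts past 2-fold were 77 and 127, of which 57 and 108 were among the former. Over 2 libraries the counts are larger by construction, with 192 higher and 226 lower at 3 and 14 months, 169 and 238 at 3 and 24 months, and 124 and 233 at 14 and 24 months.

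Among stem cell genes, Ass1 was at 161, 183 and 206 CPM in the astrocytes, and its log2 ratio of gated cells over astrocytes was 1.48 (1.17 to 1.79), 1.23 (0.83 to 1.62) and 0.47 (-0.42 to 1.30) at 3, 14 and 24 months. At 24 months the interval included 0. Fabp7, a fatty acid binding protein of radial glia, was at 1337, 1735 and 1075 CPM against 716, 551 and 639. Frzb, a secreted Wnt antagonist, was at 201, 145 and 202 CPM against 50.5, 30.3 and 137. Gfap did not separate the groups, with log2 ratios of 0.07 (-0.20 to 0.32) and -0.30 (-0.67 to 0.04) at 3 and 14 months, and it was lower in the aged gated cells (-1.69, -2.78 to -0.76). Of the 22 stem cell markers, 18 had 50 UMIs, and 10 of these were higher in the gated cells in all 3 libraries, 1 of them by 2-fold or more in each, beside 23.7% of all genes that were higher in all 3. The median log2 ratio of the 18 was 1.19, 0.91 and 0.47, beside 0.23, 0.09 and -0.03 over all 6412 genes.

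Among the 12 named genes that were higher, Ccnd2, cyclin D2 of the G1 phase, was at 737, 601 and 537 CPM in the gated cells and 119, 121 and 159 in astrocytes, with log2 ratios of 2.63 (2.32 to 2.94), 2.31 (1.92 to 2.70) and 1.76 (1.03 to 2.48). Smc4, a subunit of the condensin complex, was at 104, 44.5 and 67.2 CPM against 12.4, 6.05 and 8.58, with a log2 ratio near 3 at each age (3.07, 2.88 and 2.97), although the aged values rest on 4 and 2 UMIs. Cdk6, the kinase partner of D cyclins, and Mcm3 and Mcm7, subunits of the replicative helicase, were also among them, but each had only 2 UMIs in the aged gated cells and 2 in the aged astrocytes, with intervals that included 0. The other named genes were Hmgn2, a nucleosome binding protein, Stmn1, a microtubule destabilizer, Marcksl1, an actin regulator, Hnrnpab, an RNA binding protein, Bmper, a regulator of BMP signals, Lrrn1, a membrane protein, and Lpar1, a receptor of lysophosphatidic acid that marks DG stem cells. Without the oligodendrocyte-rich cell, aged Lpar1 was at 42.7 CPM in place of 185, against 38.6 in astrocytes, and Lrrn1 had no UMI.

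The median gene of the cell cycle lists was higher in the gated cells at 3 and 14 months, and the aged sums were too shallow to tell. The 11 S phase genes with 50 UMIs had median log2 ratios of 1.64, 0.73 and 0.0 at the 3 ages, and 5 of them were higher in all 3 libraries. For the 10 G2/M genes with 50 UMIs the medians were 1.13, 0.90 and -0.13, and 2 were higher in all 3 libraries, close to the share of all genes. None of either list was lower in all 3. In the aged gated cells all 43 S phase genes together had 27 UMIs and all 54 G2/M genes 48. The aged S phase median of 0.0 is the value given to a gene without a UMI in either class. It is thus not a measured lack of difference.

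Of 9 early-response genes with 50 UMIs, 5 were higher in all 3 libraries, 2 of them by 2-fold or more in each, and 1 was lower, beside 23.7% and 16.3% of all genes. Jun, a subunit of the AP-1 transcription factor, was at 362, 400 and 437 CPM in the gated cells and 190, 180 and 189 in astrocytes, and Jund, another subunit, at 350, 289 and 588 against 146, 156 and 330. Fos was at 382, 345 and 252 CPM against 161, 134 and 270, so it was higher at 3 and 14 months only. In the Notch pathway, which holds stem cells in quiescence, the receptor Notch2 was at 236, 145 and 151 CPM against 109, 83.7 and 107, and the target Hes5 at 414, 328 and 319 CPM against 270, 153 and 330. Of the 10 Notch pathway genes with 50 UMIs, 3 were higher and 1 lower in all 3 libraries, which is near the shares of all genes.

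Mature astrocyte genes were lower in nearly every case. Of 25 such markers, 22 were lower in the gated cells in all 3 libraries, 6 of them by 2-fold or more, and 1 was higher, with median log2 ratios of -1.14, -0.65 and -1.01. Aqp4, the water channel of astrocyte endfeet, was at 166, 350 and 84.0 CPM against 794, 824 and 528. F3, tissue factor, was at 144, 395 and 185 CPM against 1074, 1209 and 665. Among named genes outside that list, Igfbp2, an insulin-like growth factor binding protein, was at 7.44, 111 and 33.6 CPM against 616, 622 and 257, and Kcnk1, a potassium channel, at 14.9, 111 and 50.4 CPM against 645, 641 and 257. The other 10 named lower genes were Sod3, Elovl2, Il15ra, Rapgef3, Pamr1, Klhdc7a, Mfsd2a, Rbms1, Cd38 and Kalrn, and several of them rest on 0 to 4 UMIs in the gated cells, as with Sod3, which had 1, 0 and 0. Of the 10 BMP pathway genes with 50 UMIs, 2 were higher and 3 lower in all 3 libraries, beside 23.7% and 16.3% of all genes. Id3, a target gene of the pathway that encodes an inhibitor of bHLH factors, was at 124, 178 and 33.6 CPM against 555, 496 and 292. All 3 metallothionein genes, which bind zinc and copper, were lower in all 3 libraries, with Mt1 at 4856, 8865 and 7439 CPM against 9919, 11628 and 13835. Of 20 cholesterol synthesis genes, 8 were lower and 2 higher in all 3 libraries, none by 2-fold in each, beside 16.3% and 23.7% of all genes.

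**Figure D2:**
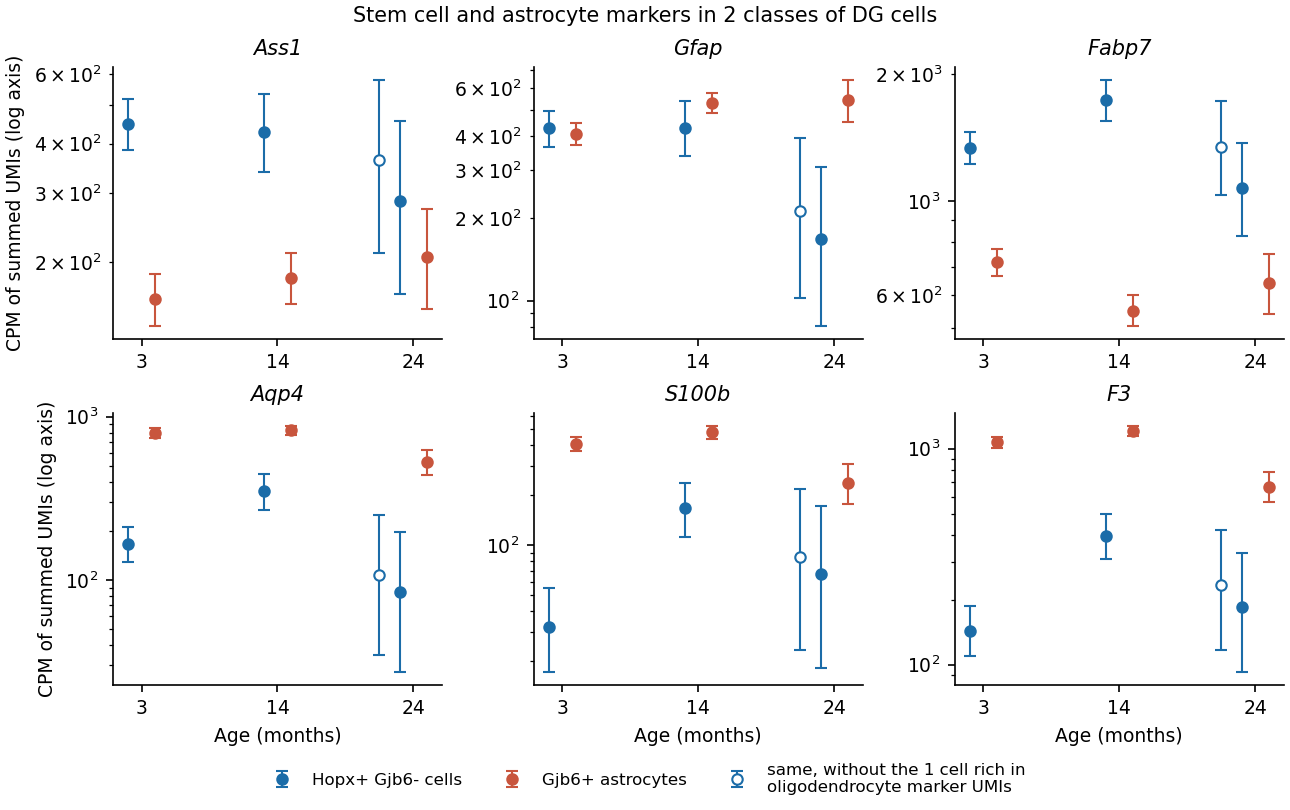
Level (CPM of summed UMIs, log axis) of 3 stem cell genes (Ass1, Gfap, Fabp7) and 3 astrocyte genes (Aqp4, S100b, F3) at 3, 14 and 24 months in Hopx+ Gjb6- cells (blue) and Gjb6+ astrocytes (red), 1 library per age, with exact Poisson 95% intervals. Open symbols are the aged cells without the oligodendrocyte-rich cell. Ass1 and Fabp7 lie above the astrocytes at 3 and 14 months, and the 3 astrocyte genes are higher at 14 than at 3 months in the Hopx+ Gjb6- cells.

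Cells just outside the gate, with 1 Gjb6 UMI, lay between the gated cells and the other astrocytes in some genes and not in others. Among adult cells with Hopx and Slc1a3, 88 had no Gjb6 UMI, 47 had 1 and 104 had 2 or more. In that order, Hmgb2 was at 419, 57.6 and 27.8 CPM, Aqp4 at 166, 393 and 954 CPM and F3 at 144, 513 and 1179 CPM. Ass1 was at 449, 403 and 121 CPM, so the cells just outside the gate were near the gated cells in Ass1 and between the others in the rest. At 14 months the numbers were 45, 28 and 113 cells, with Hmgb2 at 145, 128 and 53.9 CPM, Aqp4 at 350, 302 and 955 CPM, F3 at 395, 439 and 1250 CPM and Ass1 at 428, 503 and 175 CPM. The cells with 1 Gjb6 UMI were thus near the gated cells in all 4 genes at this age. At 24 months there were 11, 6 and 26 cells, with Hmgb2 at 0, 113 and 53.4 CPM, Aqp4 at 84.0, 188 and 480 CPM, F3 at 185, 301 and 526 CPM and Ass1 at 285, 376 and 267 CPM. Hmgb2 and Ass1 were thus highest in the 6 cells just outside the gate, though no intervals are given for these classes. The gated Ass1 level includes the oligodendrocyte-rich cell, which had no Ass1 UMI. On the side of Hopx, 21, 13 and 5 of the gated cells held exactly 1 Hopx UMI.

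From 3 to 14 months, the Hopx+ Gjb6- cells had higher levels of the mature astrocyte and metallothionein lists and lower levels of the S phase and G2/M lists. Of 1977 genes whose sums at both ages held 50 UMIs or more together, 30 (1.52%) were at least 2-fold higher at 14 months and 60 (3.03%) at least 2-fold lower, and the median log2 ratio of all was -0.07. In Gjb6+ astrocytes, which gave more UMIs, 40 of 4985 genes (0.802%) were higher and 25 (0.502%) lower. The gated sum was smaller at 14 months, at 179808 UMIs against 403172 at 3 months. The part of counting error in the counts past 2-fold was not tested.

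The mature astrocyte list was higher at 14 months in 21 of its 25 genes, beside 42.3% of all 12565 genes with a UMI at either age, and 3 of the 22 with 50 UMIs were past 2-fold, beside 1.52% of the 1977 genes with that many. Its sum was at 68628 CPM at 3 months, 92476 at 14 months and 72126 at 24 months, or 90697 without the oligodendrocyte-rich cell. The log2 ratio was 0.43 for 14 over 3 months (0.40 to 0.46) and 0.40 for 24 over 3 months (0.36 to 0.45) without that cell. Cst3, cystatin C, was the most abundant gene of the list, and the sum over these genes in astrocytes differed little, with log2 ratios of -0.01 and 0.09.

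S100b, a calcium binding protein of mature astrocytes, was at 32.2 CPM with 13 UMIs in 6 adult cells and at 167 CPM with 30 UMIs in 12 middle-aged cells, a log2 ratio of 2.37 (1.39 to 3.43) beside 0.23 in astrocytes. F3 was at 144 and 395 CPM (1.46, 0.94 to 1.98), beside 0.17 in astrocytes. Aqp4 was at 166 and 350 CPM (1.08, 0.56 to 1.59). In all 11 aged cells the 3 genes were at 67.2, 185 and 84.0 CPM, on 4, 11 and 5 UMIs, below their middle-aged levels. These levels include the oligodendrocyte-rich cell, which gave 21.4% of the aged UMIs and held none of Aqp4. With it, the log2 ratio of F3 for 24 over 14 months was -1.10 (-2.16 to -0.17). Without that cell, the sum of the whole astrocyte list was at -0.03 (-0.08 to 0.02) for 24 over 14 months. Glul, glutamine synthetase, which turns glutamate into glutamine, was at 1196, 2881 and 2267 CPM, with a log2 ratio of 1.27 (1.09 to 1.45) for 14 over 3 months, and it was also higher in astrocytes (0.50, 0.44 to 0.56).

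The other named genes that were higher at 14 months were of mixed function. Serpine2, a secreted protease inhibitor, was at 206, 584 and 252 CPM (1.50, 1.08 to 1.94), beside -0.06 in astrocytes. Cxcl14, a chemokine, was at 285, 767 and 470 CPM (1.43, 1.06 to 1.80) and Id2, an inhibitor of bHLH factors, at 176, 412 and 134 CPM (1.22, 0.74 to 1.72). Rgcc was at 136, 345 and 218 CPM, Fam107a, an actin binding protein, at 161, 400 and 202 CPM, and Fbxo2, a subunit of a ubiquitin ligase, at 131, 295 and 168 CPM. In astrocytes these genes were at 794, 1194, 977, 502, 326 and 369 CPM at 3 months, above the adult gated cells in each case. Cxcl14, Rgcc and Fam107a were also higher in astrocytes at 14 months, with log2 ratios of 0.26 (0.15 to 0.37), 0.32 (0.15 to 0.49) and 0.35 (0.14 to 0.56), while the intervals of Serpine2, Id2 and Fbxo2 included 0 there. The metallothioneins Mt1, Mt2 and Mt3 were higher at 14 months, with a log2 ratio of their sum of 0.81 (0.74 to 0.87) in the gated cells and 0.22 in astrocytes.

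Among the genes that were lower at 14 months, 1500015O10Rik, or Ecrg4, which encodes a secreted peptide precursor, led with 290, 66.7 and 33.6 CPM at 3, 14 and 24 months and a log2 ratio of -2.12 (-3.11 to -1.26) for 14 over 3 months. It was lower in astrocytes as well (-1.53, -2.45 to -0.69), from a level of 46.7 CPM. Vim, the intermediate filament protein vimentin, was at 330, 111 and 269 CPM (-1.57, -2.33 to -0.88), so that the middle-aged library was the low one. It was the low one in astrocytes too, at 113, 78.7 and 180 CPM (-0.53, -0.96 to -0.10). Nes, the intermediate filament protein nestin, had 19 UMIs in 16 adult cells and none in the middle-aged or aged cells, where up to 16.7 and 50.4 CPM could have been missed, against 47.1 CPM at 3 months. The middle-aged level is thus at least 2.82-fold lower, and the aged sum is too shallow for a bound.

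Hmgn2 was at 905, 278 and 453 CPM (-1.70, -2.16 to -1.27), beside -0.85 (-1.34 to -0.38) in astrocytes, and Hmgb2, a chromatin protein of dividing cells, at 419, 145 and 0 CPM (-1.54, -2.19 to -0.93). For Hmgb2 the aged cells had no UMI, which is at least 8.32-fold lower than at 3 months, or at least 6.54-fold without the oligodendrocyte-rich cell, at a floor of 3 UMIs per sum. This bound rests on few adult cells, since it was 2.37-fold without the 5 adult cells at or above 1% of UMIs in S phase and G2/M genes, and 1.87-fold with the oligodendrocyte-rich cell left out as well. Stmn1 was at 947, 373 and 924 CPM (-1.35, -1.74 to -0.97), but at 320 CPM in the aged cells without the oligodendrocyte-rich cell. Tubb5, a beta-tubulin, was at 647, 267 and 202 CPM, Cdk4, the kinase partner of D cyclins, at 278, 111 and 151 CPM, and Hnrnpa1, an RNA binding protein, at 218, 100 and 269 CPM. In astrocytes the ratios of Hmgb2, Stmn1, Tubb5 and Hnrnpa1 were 0.48, -0.39, -0.36 and -0.23, of which only the interval of Stmn1 (-0.75 to -0.04) did not include 0. Hmgb2, Hmgn2, Stmn1, Tubb5 and Hnrnpa1 have near-identical processed copies in the genome, so that their counts are less certain than those of other genes. Cdk4 went the other way in astrocytes, from 61.9 to 90.8 CPM (0.55, 0.08 to 1.04), and the difference between the 2 classes was not tested.

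**Figure D3:**
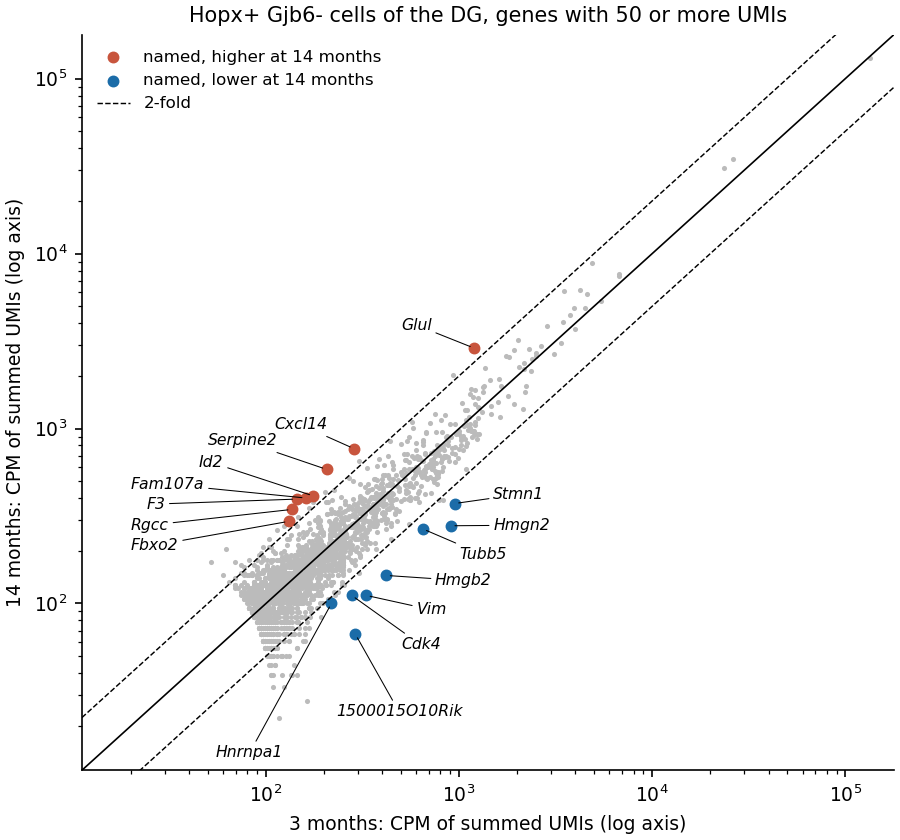
Level (CPM of summed UMIs, log axes) of 1977 genes in Hopx+ Gjb6- cells at 3 months (horizontal) and 14 months (vertical), 1 library per age. Dashed lines mark 2-fold. Red and blue points are the 8 named genes that were higher and the 8 that were lower at 14 months, from Glul at 1196 and 2881 CPM to 1500015O10Rik at 290 and 66.7 CPM.

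The S phase and G2/M lists were lower at the later ages as sums, and the difference between 3 and 14 months depends on a few cells. The 43 S phase genes were at 1709, 856 and 453 CPM, with 39 of 43 lower at 14 than at 3 months and a log2 ratio of the sum of -0.997 (-1.26 to -0.74). The 54 G2/M genes were at 2686, 1190 and 806 CPM, with 53 of 54 lower and a ratio of -1.17 (-1.39 to -0.96). Of all 12565 genes with a UMI at either age, 57.7% were lower at 14 months. Most list members rest on few UMIs, since 3 S phase and 7 G2/M genes reached 50 UMIs over both sums, of which 1 and 2 were at least 2-fold lower, beside 3.03% of all 1977 genes with that many. The astrocyte ratios were -0.11 and -0.15. For 24 over 3 months without the oligodendrocyte-rich cell, the ratios were -1.80 and -1.55 in the gated cells.

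The median cell held nearly the same share at each age. In it, S phase and G2/M genes took 0.156% of the UMIs at 3 months, 0.148% at 14 months and 0.143% at 24 months. The highest cell reached 3.90%, 1.50% and 0.227%. At or above 1% were 5 adult cells, 1 middle-aged cell and no aged cell, and Top2a, a topoisomerase of dividing cells, had 48 UMIs in 6 adult cells and none later. Mki67, another gene of dividing cells, had 7 UMIs in 3 adult cells, none at 14 months and 1 at 24 months, in the oligodendrocyte-rich cell. Without the 5 adult cells and 1 middle-aged cell at or above 1%, the log2 ratio for 14 over 3 months was -0.13 for the G2/M list. For the S phase list it was -0.63, and 36 genes in place of 60 were at least 2-fold lower. Hmgb2 then had a ratio of -0.66 and Tubb5 of -0.57. The middle-aged cell left out had the highest S phase and G2/M shares at that age, 0.947% and 0.554% of its 6862 UMIs. Its removal lowers the list sums at 14 months, so these ratios do not give the effect of the 5 adult cells alone, which was not computed.

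**Figure D4:**
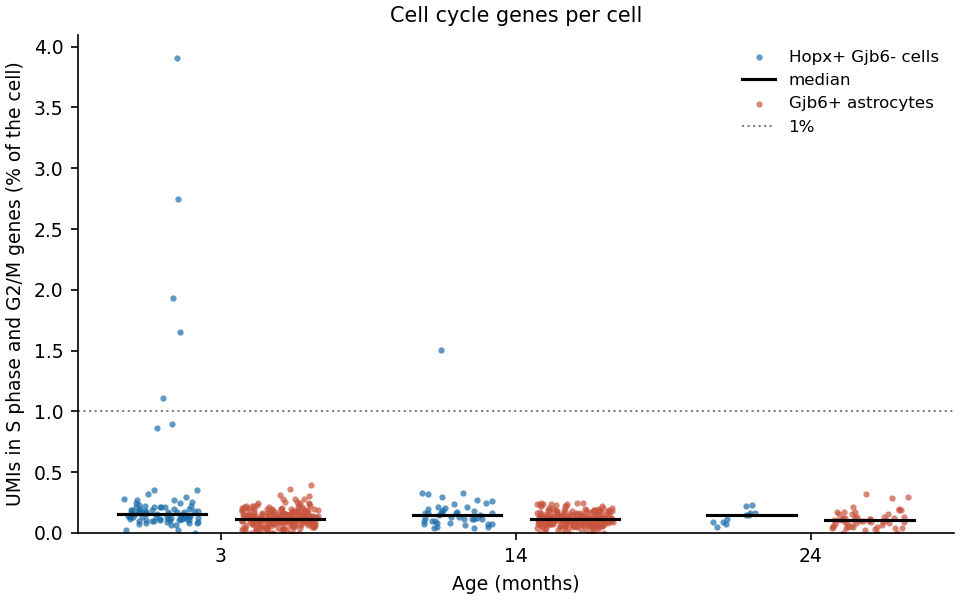
Share of each cell's UMIs in S phase and G2/M genes (percent, vertical axis) at 3, 14 and 24 months. Each point is 1 cell, Hopx+ Gjb6- cells in blue and Gjb6+ astrocytes in red, black lines are medians and the dotted line marks 1%. The medians of the Hopx+ Gjb6- cells are 0.156%, 0.148% and 0.143%, and 5, 1 and 0 of them are at or above 1%.

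Most of the adult Hmgb2 UMIs came from cells without Gfap, 126 UMIs in 8 cells, while cells with Gfap had 43 UMIs in 23 cells. At 3 months, the 17 gated cells without a Gfap UMI had Hmgb2 at 1364 CPM, Hmgn2 at 2543 CPM and Stmn1 at 2002 CPM, and the 71 with Gfap had 138, 418 and 634 CPM. Median depth was 4615 and 4231 UMIs. Ass1 was at 303 and 492 CPM and Apoe, the main lipid carrier of astrocytes, at 15475 and 25840 CPM, and the intervals of Ass1 overlapped. Of the 5 cells at or above 1% of UMIs in S phase and G2/M genes, 3 had no Gfap UMI, and they held 108 of the 126 Hmgb2 UMIs. Without the 5 cells, Hmgb2 was at 288 CPM in 14 cells without Gfap and 84.2 CPM in 69 with it, Hmgn2 at 1326 and 330 CPM, Stmn1 at 943 and 549 CPM and Ass1 at 447 and 512 CPM.

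The same division at 14 months gave 13 cells without and 32 with a Gfap UMI. Median depth was 4710 and 3778 UMIs. Ccnd2 was at 1295 CPM without and 277 CPM with Gfap, and at 1342 and 557 CPM at 3 months, or 623 and 451 CPM there without the 5 cells rich in cell cycle RNA. The values at 14 months include the 1 middle-aged cell rich in cell cycle RNA. Stmn1 was at 648 and 245 CPM and Hmgn2 at 455 and 196 CPM at 14 months. S100b went the other way at 14 months, at 17.5 and 236 CPM, with 1 UMI behind the lower value. Ass1 was at 630 CPM (441 to 872) and 334 CPM (240 to 453), so its intervals overlapped. At 24 months, with 7 cells without and 4 with a Gfap UMI, the order of Ccnd2 and Hmgn2 was reversed. Ccnd2 was at 55.8 CPM without and 1266 CPM with Gfap, on 2 and 30 UMIs, and Hmgn2 was at 167 and 886 CPM. Ass1 was at 279 and 295 CPM on 10 and 7 UMIs, and Stmn1 at 1227 and 464 CPM on 44 and 11 UMIs. The cells without Gfap included the oligodendrocyte-rich cell, which held 12734 of their 35860 UMIs, 40 of their 44 Stmn1 UMIs and none of Ass1. The order of Stmn1 thus rests on that cell, and the Ass1 level without Gfap is lowered by it. The division was made on the same counts and has no test.

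Most stem cell markers were less than 2-fold apart between 3 and 14 months. Wnt8b, a Wnt ligand of the hippocampal stem cell lineage, was at 57.0 CPM with 23 UMIs at 3 months, 16.7 with 3 UMIs at 14 months and 0 at 24 months. Tfap2c, a transcription factor, was at 57.0, 16.7 and 50.4 CPM, with 3 UMIs at each of the later ages, and Riiad1 at 131, 50.1 and 67.2 CPM. Fabp7 was higher at 14 months, with a log2 ratio of 0.38 (0.17 to 0.58). Sox9, a transcription factor of glia and stem cells, was at 337, 484 and 202 CPM, with a log2 ratio of 0.52 (0.12 to 0.92) for 14 over 3 months. Sox2, which maintains stem cells, was at 313, 400 and 285 CPM, and its interval for 14 over 3 months included 0 (-0.08 to 0.79). Hopx itself was at 672, 701 and 504 CPM, a level the gate helped to set. Of the 14 markers with 50 UMIs over both sums, 2 were at least 2-fold lower at 14 months and none was at least 2-fold higher, beside 3.03% and 1.52% of all 1977 genes.

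The aged cells give a coarser view. With all 11 cells, 54 of 1541 genes (3.5%) were at least 2-fold higher at 24 than at 3 months and 158 (10.3%) at least 2-fold lower, and the highest ratios included those of Cldn11, Mbp, Ptgds, Cryab, Cnp, Aplp1 and Fth1. Cldn11, Mbp and Cnp are genes of myelin, and 1237 of the 1241 UMIs of the oligodendrocyte markers were in 1 cell. Without that cell, 36 of 1488 genes (2.42%) were higher and 168 (11.3%) lower. In Gjb6+ astrocytes, 56 of 3515 genes (1.59%) were higher and 130 (3.7%) lower. The median log2 ratio of all genes was -0.16 with that cell and -0.11 without it. The minimum of UMIs holds for both sums together, and the gated cells gave 59549 UMIs at 24 months and 403172 at 3 months. Genes near that minimum thus rest on few aged UMIs, and counting error alone can put them past 2-fold. The astrocyte sums were deeper, at 233101 and 1049833 UMIs, so these shares are not on an equal footing. The part of counting error in the excess of lower genes was not tested.

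Without the oligodendrocyte-rich cell, Slc1a2, the glutamate transporter GLT-1 of astrocytes, was at 1915, 2792 and 4678 CPM at the 3 ages, a log2 ratio of 1.29 (1.07 to 1.51) for 24 over 3 months beside 0.59 in astrocytes. Ntm, a neuronal adhesion molecule, was at 308, 484 and 833 CPM (1.44, 0.88 to 1.97), and Alcam, an adhesion molecule, at 216, 128 and 491 CPM. Cxcl14 was at 598 CPM, still above the adult level (1.07, 0.42 to 1.67). Xist, the RNA of the inactive X chromosome, was at 551, 584 and 2051 CPM and in astrocytes at 354, 890 and 1677 CPM, while the Y-linked gene Ddx3y was at 67.0, 22.2 and 64.1 CPM. Males and females were spread evenly over the groups according to the study's methods, but the sexes within each pool are not given, and the part of sex in the Xist values was not tested.

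On the low side, H2afz, a histone variant, was at 828, 389 and 192 CPM (-2.11, -3.25 to -1.17), and Tuba1b, an alpha-tubulin, at 784, 389 and 192 CPM (-2.03, -3.17 to -1.08). Both have processed copies too. Fezf2, a transcription factor of forebrain progenitors, was at 280, 217 and 64.1 CPM and Kcnn2, a calcium-activated potassium channel, at 251, 167 and 64.1 CPM, with 3 UMIs each in the aged cells. Gfap was at 214 CPM, with a log2 ratio of -0.998 (-2.08 to -0.08). Between 14 and 24 months, 9 of 640 genes (1.41%) were at least 2-fold higher and 38 (5.94%) at least 2-fold lower without the oligodendrocyte-rich cell, and 24 of 689 (3.48%) and 37 (5.37%) with it. In astrocytes these were 53 (1.56%) and 130 (3.83%) of 3398 genes. Here too the aged sum was the smaller, and the part of counting error in the counts of lower genes was not tested. Named among the lower genes of all 11 cells were Nnat, Chchd10, Cldn10, Atp5o, Bcan, Serpine2, Slc25a5 and Gstm5. Without the oligodendrocyte-rich cell, Bcan, Serpine2 and Gstm5 were no longer past 2-fold. Cldn10, a claudin of astrocytes, was at 709, 1073 and 437 CPM at the 3 ages, or 534 CPM in the aged cells without that cell, a log2 ratio of -1.01 (-1.67 to -0.40) for 24 over 14 months.

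The sums of other pathway lists differed to various degrees. The Notch list had a log2 ratio of -0.22 for 14 over 3 months (-0.45 to -0.01) and the BMP list of 0.26 (0.07 to 0.45). The BMP list was lower again at 24 than at 14 months, at -0.49 (-0.90 to -0.11) without the oligodendrocyte-rich cell and -0.82 (-1.22 to -0.44) with it. At 24 over 3 months the Notch and BMP lists were at -0.16 (-0.55 to 0.21) and -0.23 (-0.62 to 0.13) without that cell, and at -0.44 (-0.83 to -0.08) and -0.56 (-0.94 to -0.19) with it. Fatty acid genes were at 0.34 (0.22 to 0.46) and astrocytes at 0.26, and cholesterol synthesis genes at -0.22 (-0.42 to -0.02) and astrocytes at -0.36. At 24 over 3 months the cholesterol list was at -0.55 (-0.96 to -0.17) without the oligodendrocyte-rich cell, at 0.02 (-0.28 to 0.31) with it and at -0.78 in astrocytes. Interferon response genes were at 0.24 (0.02 to 0.46) at 14 over 3 months, and at 24 over 3 months without the oligodendrocyte-rich cell they were at 0.36 (-0.01 to 0.72), where astrocytes were at 1.01 (0.83 to 1.19). Early-response genes were at -0.13 (-0.34 to 0.09) and then 0.74 (0.44 to 1.02) without that cell or 0.57 (0.29 to 0.84) with it, with 0.55 in astrocytes. The 14 reactive astrocyte genes gave only 70, 38 and 6 UMIs at the 3 ages.

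**Figure D5:**
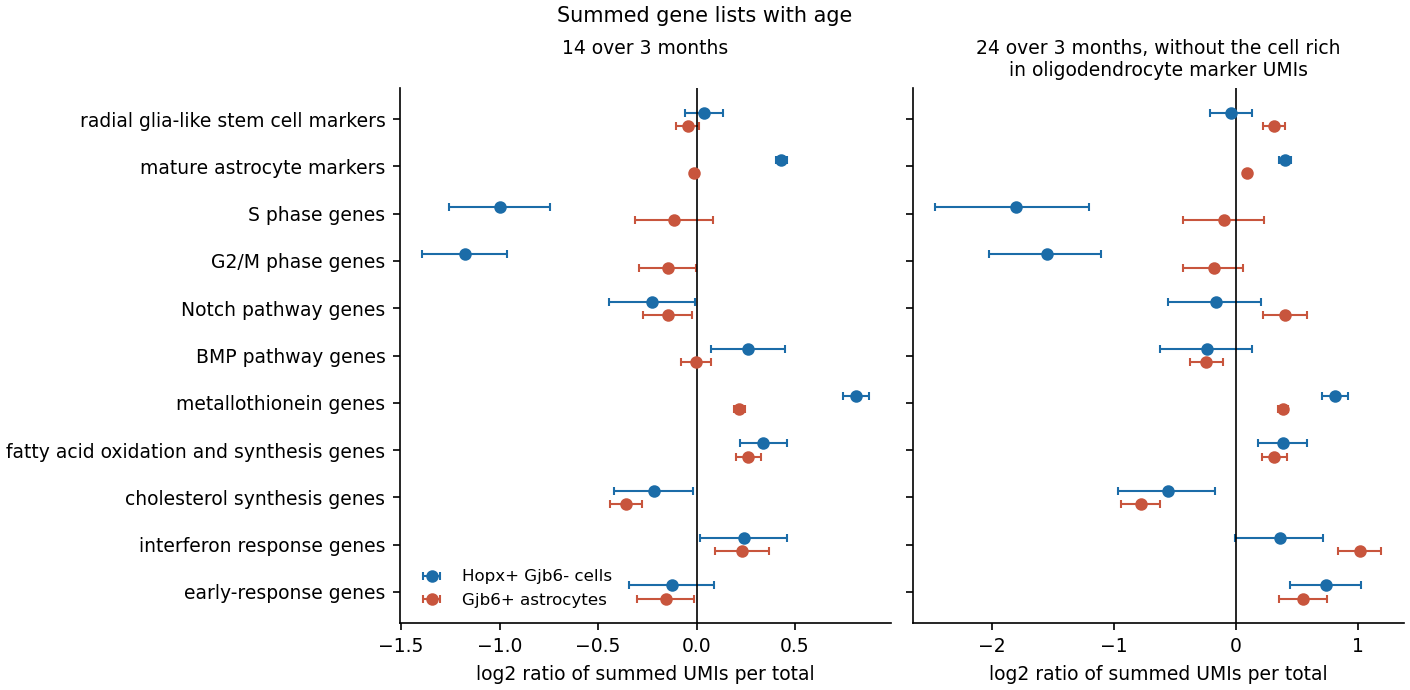
Log2 ratio of summed UMIs per total for 11 gene lists in Hopx+ Gjb6- cells (blue) and Gjb6+ astrocytes (red), at 14 over 3 months (left) and at 24 over 3 months without the oligodendrocyte-rich cell (right), with exact 95% counting intervals, 1 library per age. At 14 months the S phase and G2/M lists of the Hopx+ Gjb6- cells lie at -0.997 and -1.17 and their mature astrocyte and metallothionein lists at 0.43 and 0.81.

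The promoter of Hmgb2 is shown because this gene of the G2/M list was lower at 14 months and had no UMI in the aged cells. Hmgb2 lies on the plus strand of chromosome 8 (GRCm38, 57511907 to 57515999, GENCODE), and the 250 bases before the RefSeq start are chr8:57511593-57511842. Capitals mark CCAAT, the box bound by NF-Y, and TTTGAA, the core of the cell cycle homology region of late cell cycle promoters, each searched on both strands (ATTGG and TTCAAA in reverse).
Hmgb2: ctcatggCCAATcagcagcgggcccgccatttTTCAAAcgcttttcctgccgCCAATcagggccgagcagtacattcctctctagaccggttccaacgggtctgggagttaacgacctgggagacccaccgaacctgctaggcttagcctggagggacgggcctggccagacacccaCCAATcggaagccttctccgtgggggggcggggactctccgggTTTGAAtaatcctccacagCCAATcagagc
The CCAAT matches begin 243, 198, 73 and 11 bases before the start, and the TTTGAA matches 218 (as TTCAAA) and 30 bases before it. Of the 8 named genes that were lower at 14 months, 7 had a promoter in the RefSeq table. CCAAT or its reverse was found in 4 of these 7 and in 33.8% of all 32851 promoters, and TTTGAA or its reverse in 3 of 7 and in 16.0%. The motifs were chosen after the genes were known, and a match is a run of letters and not a site shown to be bound.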

How the data were processed

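The deposited single-cell files hold raw UMI counts per gene and barcode, which the authors made with Cell Ranger 3.0.2 on mm10, according to the file header and the submitters' processing notes. The lowest total per DG barcode was 500 UMIs. Groups were taken from the labels, with 1 library per region and age. The members and all 19 gene lists were chosen with earlier results of these data known. The S phase and G2/M lists are those commonly used for cell cycle scores. Lists are described by their sums and counts.

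UMIs were summed over the cells of a class and divided by the total and scaled to 1000000 (CPM). Ratios between sums were counted at 2-fold or more among genes whose sums together held 50 UMIs or more, with a pseudocount of 0.5 and an absolute log2 ratio of 1. Other printed ratios of single genes and of list sums have no pseudocount, and their intervals are exact conditional binomial ones. Levels carry exact Poisson intervals and shares Clopper-Pearson intervals, all at 95%. Medians of log2 ratios use the pseudocount and have no interval. The same holds for single-gene ratios without cells rich in cell cycle RNA and in the closing section on processing. A sum of 0 was given a floor of 3 UMIs. For shares across depths each cell was thinned to 1500 UMIs. Named for each age pair were the 8 highest and 8 lowest ratios among genes with at least 100 UMIs, an absolute log2 ratio of at least 1 and an interval without 0. Named against Gjb6+ astrocytes were the 12 highest and 12 lowest by the smallest ratio of the 3 libraries. Members of the lists could also be named, and none of the 6 gate genes is among the named genes.

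Scrublet (expected rate 0.01, through scanpy 1.11.5) was used to call doublets, which were kept. It called 7, 20 and 30 barcodes of the DG libraries at 3, 14 and 24 months, among them 0, 0 and 1 gated cells. Python 3.11.15, numpy 2.4.6, scipy 1.17.1, pandas 2.3.3 and matplotlib 3.10.9 were used, and the steps were tested on simulated data. Gene positions are those of GENCODE M21 for GRCm38, matched by gene identifier, and promoters those of RefSeq for GRCm38.p6, matched by symbol.

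A count model of the gated cells between regions, paired by age, had been planned. The same gate found 1, 1 and 0 cells in the SVZ and 25, 17 and 9 in the OB at 3, 14 and 24 months. The model required 10 cells in each library, which the SVZ and the aged OB did not reach, so it was not run. The alternatives without the oligodendrocyte-rich cell and without cells rich in cell cycle RNA were chosen only once the data were known. Bulk samples were not used here. Some genes within these rules are not reported here.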

Additional observations from a re-analysis of the deposited data

Results flagged for a closer look

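The same gate also found cells outside the DG. In the OB it took 25 of 443 barcodes at 3 months (5.64%), 17 of 592 at 14 months (2.87%) and 9 of 310 at 24 months (2.90%), and of these 12, 2 and 1 had at least 1% of their UMIs in oligodendrocyte markers. These barcodes were singled out because they pass the gate in libraries that no comparison of the report uses. The other 13, 15 and 8 had Ass1 at 147, 39.9 and 158 CPM and Aqp4 at 1072, 578 and 368 CPM.

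Cdk4 was singled out because it went in opposite directions in 2 classes of the same DG libraries. Its log2 ratio for 14 over 3 months was -1.32 (-2.09 to -0.63) in the Hopx+ Gjb6- cells and 0.55 (0.08 to 1.04) in Gjb6+ astrocytes, and the difference between these ratios was not tested.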

How the results depend on the processing

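The shares at 3 and 14 months moved to 19.2% and 7.05% when 1 Gjb6 UMI was allowed and to 9.54% and 3.09% when 2 Hopx UMIs were required, and 29 of 33 shares under other settings stayed within their intervals. Counts of genes past 2-fold moved most with the minimum. With 20 UMIs they were 118 higher and 335 lower for 14 over 3 months, 208 and 705 for 24 over 3 months and 119 and 214 for 24 over 14 months, and with 200 UMIs they were 4 and 5, 5 and 6, and 3 and 3. Allowing 1 Gjb6 UMI left 10 genes higher for 14 over 3 months. Without cells rich in cell cycle RNA, 36 genes were lower for 14 over 3 months and 102 for 24 over 3 months. Without the oligodendrocyte-rich cell, 9 were higher for 24 over 14 months.

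The astrocyte list at 14 over 3 months was at 0.50 when centred on the median gene, 0.37 as a mean of cells, 0.36 with 1 Gjb6 UMI allowed and 0.35 without cells rich in cell cycle RNA, and at 24 over 3 months with all aged cells it was at -0.062 in the last setting, against 0.072. The S phase and G2/M lists at 14 over 3 months were at -0.72 and -0.64 as a mean of cells and at -0.63 and -0.13 without cells rich in cell cycle RNA. Removing the oligodendrocyte-rich cell turned the sign at 24 over 3 months for the oligodendrocyte list (-0.92), Cldn11 (-2.94), Mbp (-2.45), Ptgds (-0.90) and Cnp (-0.43), and at 24 over 14 months for that list (-1.15), the metallothionein list (0.0066), Mbp (-1.18), Ptgds (-0.83), Cnp (-0.89) and Stmn1 (-0.22). Bcan at 24 over 14 months was at 0.024 with 1 Gjb6 UMI allowed. Apart from settings that change the cells summed, the cause of a move was not tested. Of 490 values of named genes, 451 stayed within their intervals, as did 552 of 608 values of lists.

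The alternatives planned for the comparison of regions (another normalization, other filters on low counts, a fit of 2 regions, other gates, no doublets, and ages left out) were not run, since that comparison was not made. The fit of DG against OB paired by age required 10 gated cells in each library, and the aged OB held 9, so it was not run. Depth limits the aged values, where 3 UMIs are 50.4 CPM, against 7.44 CPM at 3 months.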
